A study of Mus musculus with 15 samples.

Results

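The insulin-like growth factor (IGF) genes and the genes of their binding proteins were followed in cells sorted from mouse kidney and labelled as PDGFRa-positive fibroblasts. Of 9 listed genes (Igf1, Igf2, Igf1r and Igfbp2 to Igfbp7), 8 had a probe set that named them alone in the platform annotation, and all 8 passed the filter on dim genes. Igfbp7 is named only. The 8 stood among 17097 genes measured and 13523 tested on the same arrays. They were chosen as a family by name, with earlier results of these data known.

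IGF1 and IGF2 are secreted growth factors that signal through IGF1R, a receptor tyrosine kinase coupled to the PI3K, AKT and mTOR cascade. Most extracellular IGF is held by IGF binding proteins, which carry the ligand, keep it from the receptor or bring it close to cells, and which proteases cut to release it. IGF1 acts on proliferation and matrix synthesis in fibroblasts, and several binding proteins are themselves secreted by stromal and endothelial cells.

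The study used adult C57BL/6 mice and sorted PDGFRa-positive cells from the kidney by flow cytometry. The 15 arrays fell into 5 groups of 3, namely unilateral ureteral obstruction (UUO) at day 14, uninjured kidney, and kidney at day 3, day 7 or day 14 of folic acid-induced acute kidney injury. UUO blocks the urine outflow of a single kidney and leads to progressive fibrosis, and folic acid injures the tubule epithelium. Separate animals are not stated for the 3 arrays of a group. The p-values therefore reflect the scatter among these arrays and no more, and that scatter may be technical.

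Levels are log2 intensities, on which a difference of 1 is a doubling of the fluorescence, and the array medians lay between 4.93 and 5.06. Probe sets differ in how brightly they hybridise, so a level was never set against that of another gene. Group levels are means ± SD (n = 3 arrays), and differences between groups are on the same log2 scale, with a standard error (SE). A gene was called where limma's moderated test gave a Benjamini-Hochberg adjusted p under 0.05 over all genes tested.

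The groups differed in markers of the sorted cells, which touches every comparison with uninjured kidney. The mean of 10 fibroblast markers was 9.58 in UUO, 6.23 in uninjured kidney, and 8.85, 8.72 and 8.31 at folic acid day 3, day 7 and day 14. Uninjured arrays lay between 5.79 and 6.57, and there Col1a1 averaged 6.81 ± 0.08 and Col3a1 5.57 ± 1.08, against means from 11.17 to 12.23 for both in the injured groups. Pdgfra, the gene behind the sort, averaged 5.99 ± 0.48 in UUO, 6.01 ± 0.38 in uninjured kidney, and 6.69 ± 0.55, 5.50 ± 1.00 and 5.28 ± 1.20 at folic acid day 3, day 7 and day 14. Vim, another bright marker of the list, averaged 10.19 ± 0.67 in uninjured kidney, against means from 11.31 to 11.86 in the injured groups. Against uninjured kidney, 8 of the 10 markers were called higher in UUO and 5, 5 and 6 over the folic acid days, with 0 lower. The uninjured arrays were thus low in Col1a1, Col3a1 and the mean of the list, while Pdgfra did not set them apart. How far the uninjured arrays hold fibroblasts is not settled by these markers. Proximal tubule markers (11 genes) averaged 5.53 in UUO, 8.65 in uninjured kidney, and 6.51, 6.81 and 8.25 over the folic acid days, and folic acid day 7 array 1 and day 14 arrays 1 and 2 lay within the uninjured range of 8.09 to 9.43. Distal nephron and collecting duct markers (13 genes) averaged 5.81 in UUO, 8.60 in uninjured kidney, and 6.36, 7.01 and 8.25 over the folic acid days. No fit used them as a covariate. Pericyte and smooth muscle markers (7 genes) averaged 6.50 in UUO, 6.99 in uninjured kidney, and 7.25, 6.63 and 7.00 over those days. Markers of macrophages and dendritic cells (20 genes) averaged 5.99 in UUO, 5.33 in uninjured kidney, and 5.83, 8.13 and 8.04 over the folic acid days. In bulk samples such as these, fewer cells of a type and less RNA per cell cannot be told apart, and the part of other cells in the results that follow was not tested beyond the values given beside them.

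**Figure D1:**
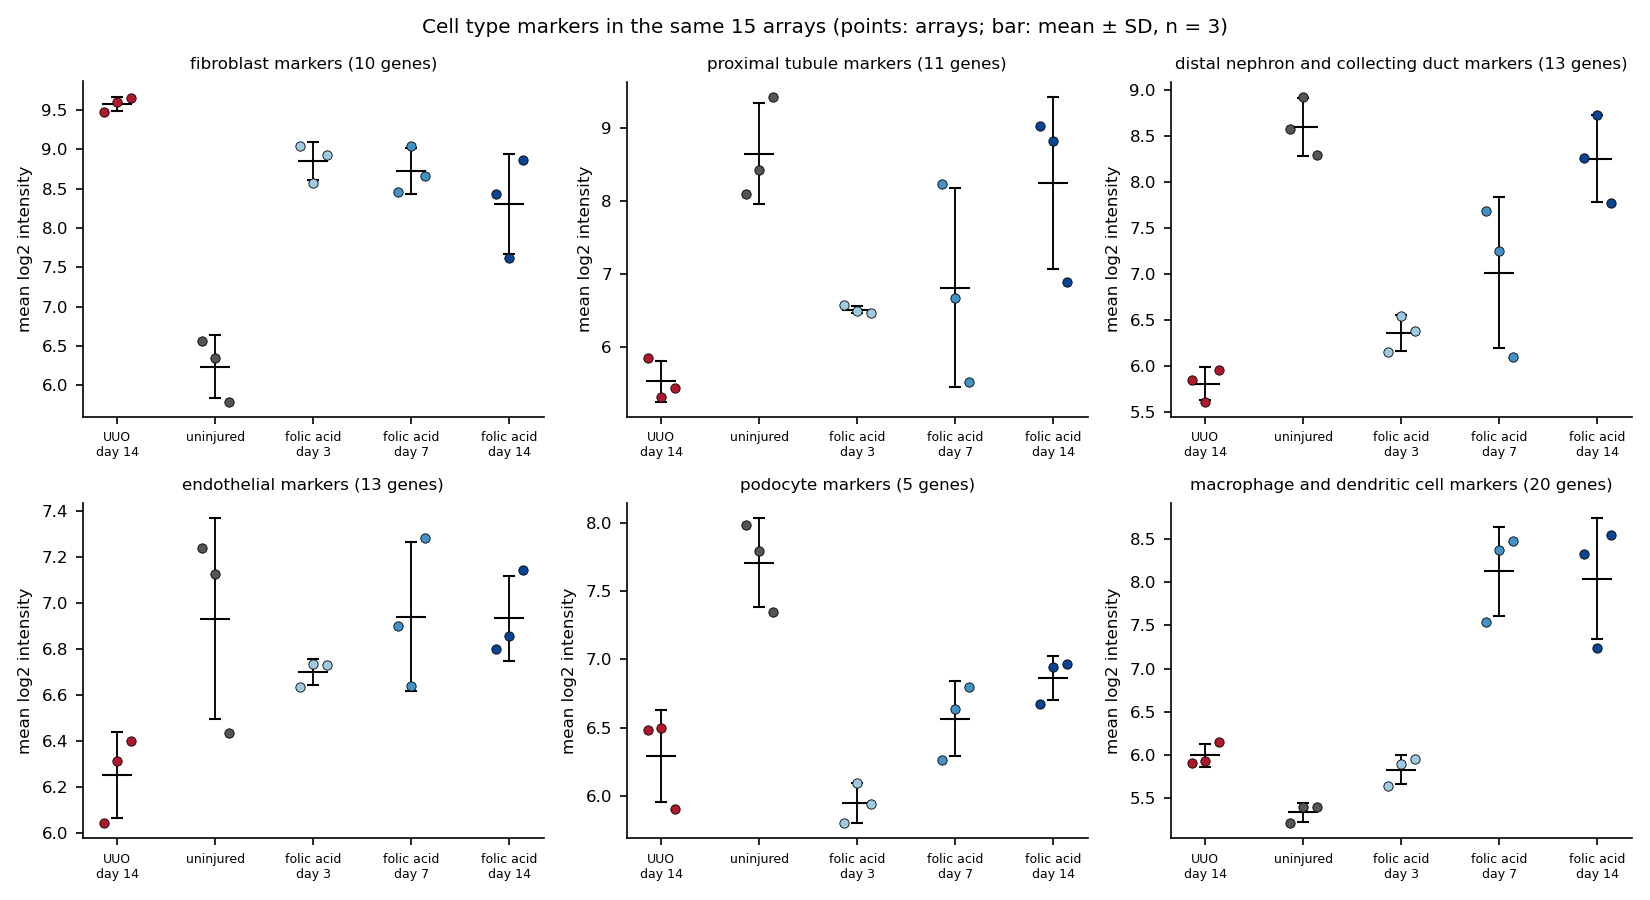
Mean log2 intensity of 6 cell type marker lists in each of the 15 arrays, by group. Points are arrays and bars are means ± SD (n = 3); uninjured arrays are lowest in fibroblast markers (5.79 to 6.57), and folic acid day 7 and day 14 arrays are highest in macrophage markers.

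Of the 8 IGF genes analysed, Igfbp2, Igfbp3 and Igfbp5 had the widest range of group means, and their promoters are shown for that reason. Each window holds the 250 bases before the most upstream annotated start of the gene, 5′ to 3′ on the coding strand, from RefSeq on GRCm38.p6. Igfbp2 had 2 windows listed, and Igfbp3 and Igfbp5 had 1 each. Igfbp2 lies at chr1:72824230-72824479 on the plus strand, Igfbp3 at chr11:7213924-7214173 on the minus strand and Igfbp5 at chr1:72874866-72875115 on the minus strand. Capitals mark matches, on either strand, to 3 motifs. These are the TATA box, spelled TATAAA, the GC box, which in these windows was searched for as GGGCGG, and the core of the hypoxia response element, which was searched for as ACGTG and in its other usual spelling as GCGTG.
Igfbp2: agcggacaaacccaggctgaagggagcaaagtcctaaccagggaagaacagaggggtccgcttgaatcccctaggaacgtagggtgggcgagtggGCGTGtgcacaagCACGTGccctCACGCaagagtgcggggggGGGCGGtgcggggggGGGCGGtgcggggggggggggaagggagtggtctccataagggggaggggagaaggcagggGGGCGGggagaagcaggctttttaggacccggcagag
Igfbp3: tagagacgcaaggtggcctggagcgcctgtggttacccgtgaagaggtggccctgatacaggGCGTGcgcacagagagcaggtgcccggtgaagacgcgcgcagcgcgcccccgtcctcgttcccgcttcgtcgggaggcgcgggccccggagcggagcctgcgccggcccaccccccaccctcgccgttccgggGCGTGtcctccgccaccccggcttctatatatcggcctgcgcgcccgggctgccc
Igfbp5: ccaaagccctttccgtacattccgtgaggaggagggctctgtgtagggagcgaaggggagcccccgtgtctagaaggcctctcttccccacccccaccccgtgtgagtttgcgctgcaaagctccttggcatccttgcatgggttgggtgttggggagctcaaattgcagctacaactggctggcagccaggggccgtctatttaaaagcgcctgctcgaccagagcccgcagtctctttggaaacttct
The Igfbp2 window held 3 GC boxes and 4 hypoxia core matches, of which a pair on opposite strands shares 4 bases. The Igfbp3 window held 2 hypoxia cores, and these letters were not found in the Igfbp5 window. Over 32851 mouse promoter windows of the same length, 12.4% held the TATA box, 32.7% the GC box and 38.6% a hypoxia core, and of the 9 listed IGF genes 2, 3 and 5 did. The 32851 include every listed window of a gene, while each IGF gene stands by its most upstream window. A match is a string of letters and not a measured binding site.

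Across the 5 groups, 5 of the 8 IGF genes differed in limma's F test, against 15.3% of all genes tested. These were Igf1 (adjusted p = 0.0297), Igfbp2 (adjusted p = 0.000421), Igfbp3 (adjusted p = 0.0107), Igfbp4 (adjusted p = 0.00209) and Igfbp5 (adjusted p = 0.0205). Igf2, Igf1r and Igfbp6 did not pass (adjusted p = 0.487, 0.0696 and 0.0580).

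Against uninjured kidney, UUO moved the most IGF genes. Igf1, Igfbp2, Igfbp3 and Igfbp6 were higher and Igfbp4 and Igfbp5 lower, so that 6 of 8 were called, against 16.6% of all genes (9.07% higher and 7.52% lower). At folic acid day 3, 4 of 8 were called (Igf1 and Igfbp3 higher, Igfbp4 and Igfbp5 lower), against 17.0% of all genes (10.6% higher and 6.39% lower). At day 7, 5 of 8 were called (Igf1, Igfbp3 and Igfbp6 higher, Igf1r and Igfbp4 lower), against 11.7% (7.50% higher and 4.19% lower). At day 14, 2 of 8 were called (Igf1 higher, Igfbp4 lower), against 5.67% (4.20% higher and 1.47% lower). The median log2 difference of the 8 was 0.45 in UUO and -0.16, -0.24 and 0.29 over the folic acid days, while that of all genes tested was -0.01 in UUO and 0.02, 0.01 and 0.02 over those days. The 4 comparisons share the uninjured arrays. With the 3 injured arrays in the uninjured range of tubule markers left out, the counts were 6 in UUO and 4, 4 and 0 over the folic acid days, the last resting on 1 array at day 14.

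**Figure D2:**
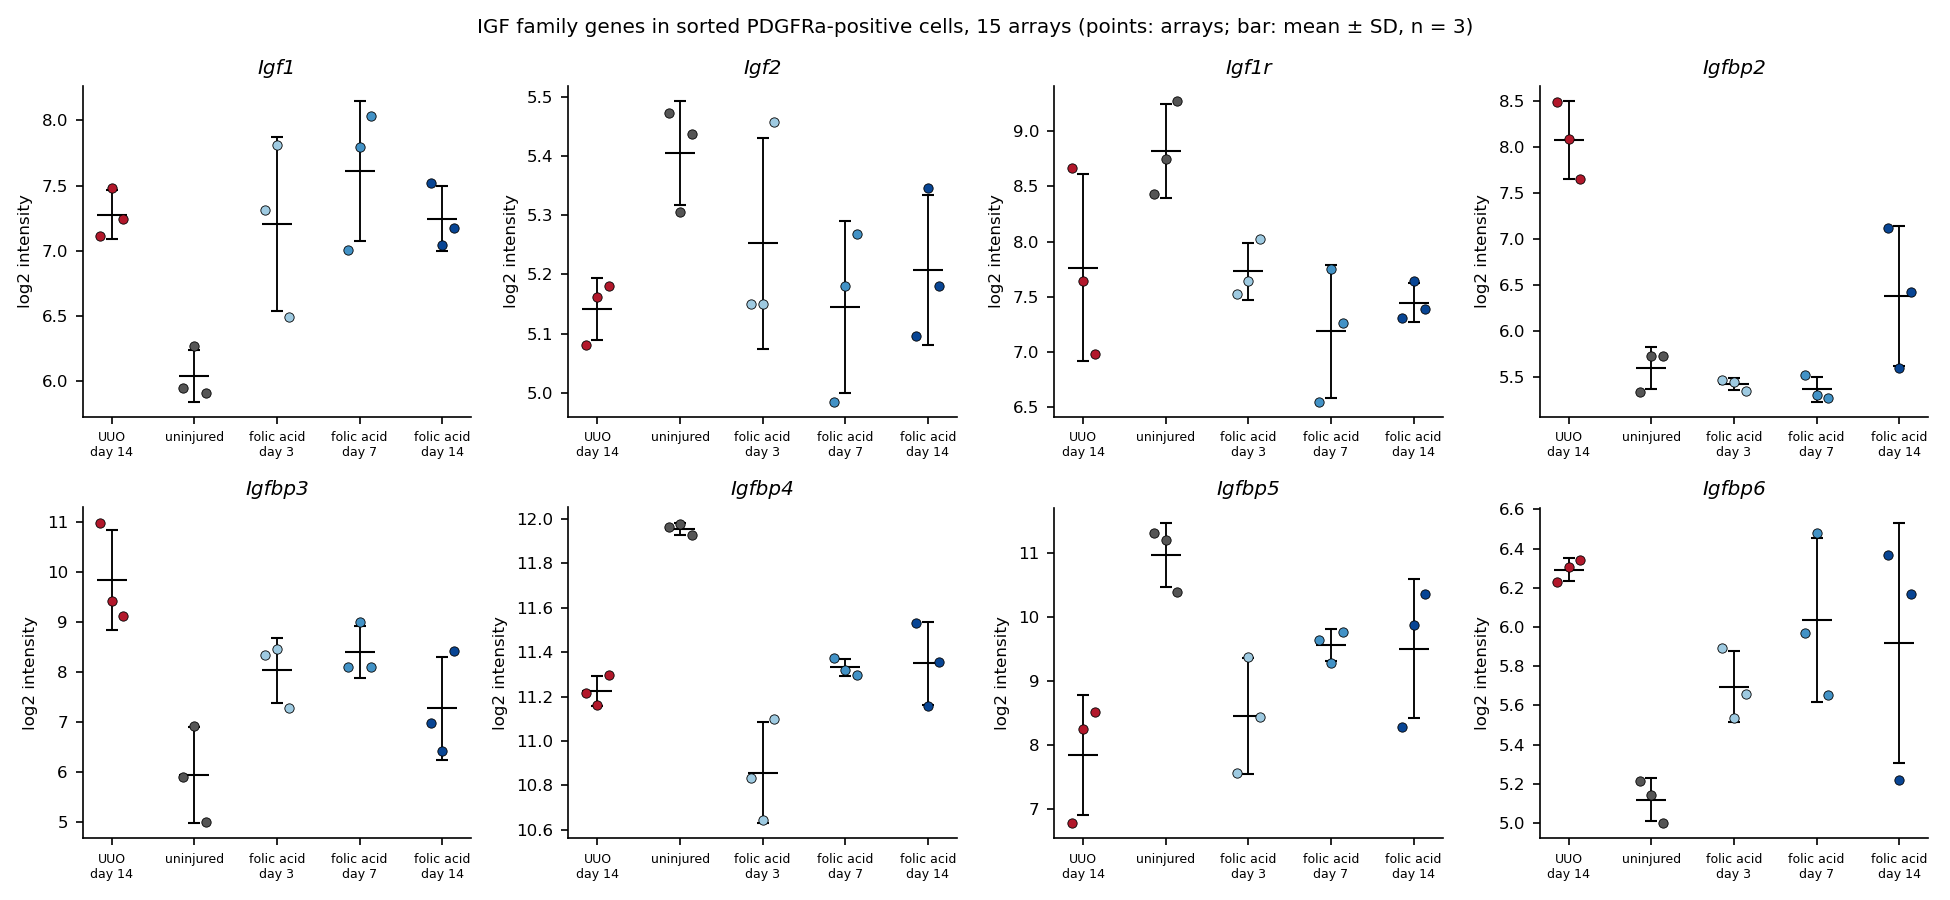
Log2 intensity of each of the 8 IGF genes in the 15 arrays, with 1 panel per gene and its own axis. Points are arrays and bars are means ± SD (n = 3); Igfbp2 is above 7.6 in each UUO array and below 5.8 in each uninjured array and at folic acid days 3 and 7, and Igfbp4 and Igfbp5 are highest in uninjured kidney.

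Igf1, the main IGF ligand of adult tissue, was higher in all 4 injured groups than in uninjured kidney. Its 3 arrays read 7.11, 7.48 and 7.24 in UUO and 5.95, 6.27 and 5.90 in uninjured kidney. They read 7.31, 7.81 and 6.49 at folic acid day 3, 7.01, 7.79 and 8.04 at day 7, and 7.52, 7.04 and 7.17 at day 14. No injured array overlapped the uninjured ones, and the injured groups overlapped one another. The log2 difference from uninjured kidney was 1.24 in UUO (SE 0.32, adjusted p = 0.0193, 2.36-fold), 1.16 at day 3 (adjusted p = 0.0260), 1.57 at day 7 (adjusted p = 0.00800, 2.97-fold) and 1.21 at day 14 (adjusted p = 0.0470). In the order of group means, day 7 (7.61), UUO (7.28), day 14 (7.25) and day 3 (7.20), no neighbours differed (adjusted p from 0.829 to 0.983), and only the step to uninjured kidney (6.04) was called. The day 7 call held without any single array (adjusted p up to 0.0356). The day 3 call was lost without day 3 array 1 or 2 or uninjured array 1 or 3 (adjusted p from 0.0726 to 0.0981), the UUO call without UUO array 2 or 3 or uninjured array 1 or 3 (adjusted p from 0.0504 to 0.0693), and the day 14 call under 11 of 15 single omissions (adjusted p up to 0.141).

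Macrophages are another known source of Igf1, and 13 of 19 tested macrophage markers were higher at folic acid day 7 and 12 at day 14, against 4 at day 3 and 3 in UUO, where 1 was lower. With the mean of these markers as a covariate, the Igf1 difference was 0.36 at day 7 (adjusted p = 0.966) and 0.03 at day 14 (adjusted p = 0.996), against 0.95 at day 3 (adjusted p = 0.0967) and 0.95 in UUO (adjusted p = 0.135). The macrophage mean was at least 7.54 at day 7 and 7.24 at day 14, and at most 5.39 in uninjured arrays. This covariate thus moves with the groups, so the fit cannot separate the part of macrophages, which was not tested. With proximal tubule markers in the fit, Igf1 differed by 0.66 in UUO (adjusted p = 0.590) and by 0.77, 1.23 and 1.13 over the folic acid days, and none was called.

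All 4 Igf1 probe sets had higher means in each injured group than in uninjured kidney, by different amounts. The probe set 1437401_PM_at differed by 2.56 in UUO and 2.87 at folic acid day 7, against 0.64 at day 3 and 1.06 at day 14. The used probe set, 1452014_PM_a_at, gave almost level differences over the same groups. With the probe set of highest variance in its place, the difference at day 7 minus day 3 was 2.22 (adjusted p = 0.0247) and in UUO minus day 3 was 1.92 (adjusted p = 0.0397), where the used probe set gave 0.41 and 0.07 and no call.

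Igf2, the ligand best known from fetal growth, lay near the array median in every group. Its arrays read 5.08, 5.16 and 5.18 in UUO, 5.47, 5.31 and 5.44 in uninjured kidney, and between 4.98 and 5.46 over the folic acid days. The differences from uninjured kidney were small and negative, from -0.15 at day 3 (95% confidence interval -0.44 to 0.13) to -0.26 in UUO (-0.55 to 0.02), and none was called. The background of the probe set was not measured here.

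Igf1r encodes the signalling receptor of both ligands. It read 8.67, 7.64 and 6.98 in UUO and 8.43, 8.75 and 9.27 in uninjured kidney. It read 7.53, 7.64 and 8.02 at folic acid day 3, 6.55, 7.75 and 7.26 at day 7, and 7.31, 7.64 and 7.39 at day 14. Every folic acid array lay below every uninjured array, and UUO array 1 lay inside the uninjured range. The difference was -1.63 at day 7 (SE 0.39, adjusted p = 0.0193, 3.10-fold lower), which was the only call. It was -1.09 at day 3 (adjusted p = 0.0791), -1.37 at day 14 (adjusted p = 0.0643) and -1.05 in UUO (adjusted p = 0.0896), with 95% intervals that lay below 0 in all 3. Without UUO array 1, the differences were called in UUO (-1.50, adjusted p = 0.0154), at day 3 (adjusted p = 0.0360) and at day 14 (adjusted p = 0.0283). The day 14 difference was also called without day 7 array 1 (adjusted p = 0.0491) or UUO array 3 (adjusted p = 0.0405), and quantile normalization called all 3 (adjusted p from 0.0261 to 0.0400). The day 7 call was lost without day 7 array 1 (adjusted p = 0.0582) or uninjured array 2 or 3 (adjusted p = 0.0555 and 0.0825).

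The 4 Igf1r probe sets each had lower means in every injured group than in uninjured kidney. The probe set 1426565_PM_at differed least, by -0.16 in UUO and by -0.04, -0.26 and -0.19 over the folic acid days, and 1428967_PM_at by -0.62 in UUO and by -0.98, -1.41 and -0.93. Igf1r is expressed by tubule cells too, and the proximal tubule mean given above was lower in each injured group, with 0 of 11 tested markers called at day 14. Day 7 array 1 and day 14 arrays 1 and 2 lay within the uninjured range of those markers. They read 6.55, 7.31 and 7.64 for Igf1r, below every uninjured array. These arrays were picked out after the data had been seen, and by proximal tubule markers only. The part of tubule cells was not tested. With the proximal tubule marker mean as a covariate the day 7 difference was -1.64 (adjusted p = 0.0987).

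**Figure D3:**
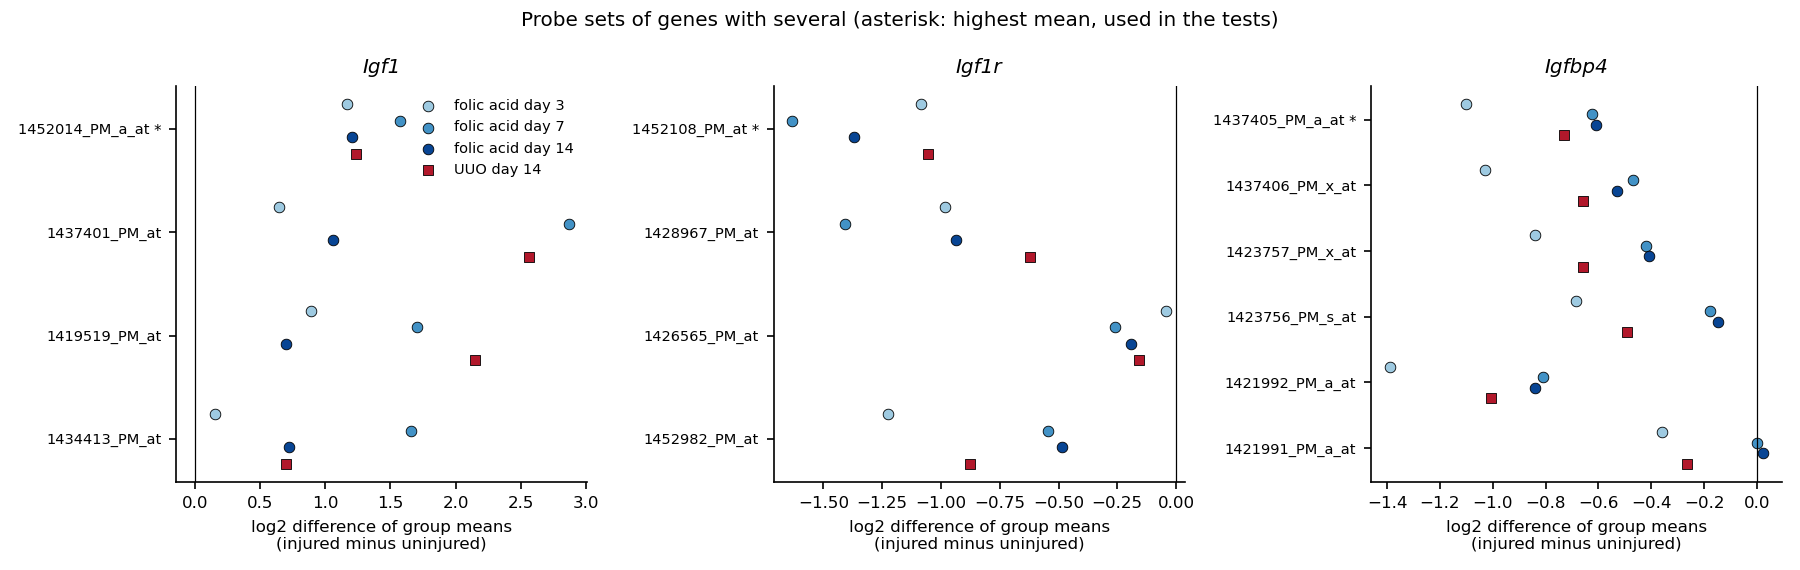
Log2 differences of group means, injured minus uninjured, for every probe set of Igf1, Igf1r and Igfbp4, with folic acid days as circles and UUO as squares. The asterisk marks the probe set used in the tests; the Igf1 probe sets all lie above 0 and the Igf1r ones all below 0, while 1421991_PM_a_at of Igfbp4 is at -0.00 and 0.02 at folic acid day 7 and day 14.

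Igfbp2, which binds both ligands and carries an integrin-binding motif, was high in UUO. Its arrays read 8.49, 8.09 and 7.65 in UUO and 5.33, 5.73 and 5.73 in uninjured kidney. They read 5.47, 5.45 and 5.35 at folic acid day 3, 5.53, 5.30 and 5.28 at day 7, and 7.12, 5.60 and 6.42 at day 14. The UUO arrays lay above every other array, days 3 and 7 overlapped uninjured kidney, and day 14 was spread, with array 2 at the uninjured level. UUO exceeded uninjured kidney by 2.48 (SE 0.31, adjusted p = 0.000254, 5.57-fold).

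UUO was also compared with each folic acid time. Igfbp2 was higher in UUO than at day 14 by 1.69 (SE 0.31, adjusted p = 0.0145, 3.24-fold), than at day 7 by 2.71 (adjusted p = 0.00370, 6.52-fold) and than at day 3 by 2.65 (adjusted p = 0.00158, 6.27-fold). It was the only one of the 8 IGF genes called in each of these comparisons, where 3.03%, 0.274% and 1.13% of all genes were called. UUO and folic acid were matched in time only at day 14, and the earlier days differ in both model and time. The day 14 comparison was lost without UUO array 1 or 2 (1.49, adjusted p = 0.0529, and 1.69, adjusted p = 0.0510) and in a fit of the 6 arrays alone (adjusted p = 0.156). The day 7 comparison gave an adjusted p of 0.0578 in a fit of its own 6 arrays.

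Folic acid day 14 differed from uninjured kidney in Igfbp2 by 0.78 (SE 0.31, adjusted p = 0.178), which was not called. Without day 14 array 2 the difference was 1.17 (adjusted p = 0.0196). In UUO, 10 of 13 tested distal nephron markers and 10 of 19 tested macrophage markers were lower than at day 14, and 4 of 10 fibroblast markers were higher. Igfbp2 in UUO minus day 14 was 1.99 when fitted with proximal tubule markers as a covariate (adjusted p = 0.186), 2.51 with the macrophage mean (adjusted p = 0.0815) and 1.40 with the endothelial mean (adjusted p = 0.106).

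Igfbp3, the main carrier of IGF in blood plasma and a secreted product of many stromal cells, had the largest difference of the 8. Its arrays read 10.98, 9.41 and 9.10 in UUO and 5.89, 6.92 and 4.99 in uninjured kidney. They read 8.34, 8.45 and 7.28 at folic acid day 3, 8.09, 8.99 and 8.09 at day 7, and 6.98, 6.41 and 8.41 at day 14. The UUO arrays lay above all others, and only day 14 overlapped uninjured kidney. UUO exceeded uninjured kidney by 3.89 (SE 0.64, adjusted p = 0.00139, 14.9-fold), day 3 by 2.09 (adjusted p = 0.0416, 4.25-fold) and day 7 by 2.45 (adjusted p = 0.0271, 5.48-fold), while the day 14 difference was 1.33 (adjusted p = 0.265). The 95% interval of the UUO difference ran from 2.51 to 5.28.

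In the order of Igfbp3 means, UUO (9.83), day 7 (8.39), day 3 (8.02), day 14 (7.27) and uninjured kidney (5.94), no neighbours differed (adjusted p from 0.265 to 0.908). UUO minus folic acid day 14 was 2.56 (SE 0.64, adjusted p = 0.0512) and did not pass. It was called without day 14 array 3 (3.14, adjusted p = 0.0194), without uninjured array 3 (adjusted p = 0.0481) and under 3 other settings. The UUO call against uninjured kidney held without any single array. The day 3 call was lost without day 3 array 1 or 2, UUO array 2 or uninjured array 1 or 3 (adjusted p from 0.0506 to 0.159), and the day 7 call without day 7 array 2 or uninjured array 1 or 3 (adjusted p from 0.0697 to 0.110). Quantile normalization, array weights, a threshold of 0.01 and the proximal tubule, macrophage and endothelial covariates each ended the day 3 call. The day 7 call was lost at 0.01 and with the proximal tubule or macrophage covariate. Over the settings other than single omissions, the difference ran from 1.32 to 2.19 at day 3 and from 0.56 to 2.61 at day 7. Fitted with proximal tubule markers as a covariate, UUO differed by 2.77 (adjusted p = 0.213).

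Igfbp4, a binding protein mostly known to restrain IGF action until PAPPA cleaves it, was lower in every injured group. Its arrays read 11.22, 11.16 and 11.30 in UUO and 11.96, 11.98 and 11.93 in uninjured kidney. They read 10.83, 10.64 and 11.10 at folic acid day 3, 11.37, 11.32 and 11.30 at day 7, and 11.53, 11.16 and 11.36 at day 14. The uninjured arrays lay close together and above every injured array. The difference was -0.73 in UUO (SE 0.14, adjusted p = 0.00317, 1.66-fold lower), -1.10 at day 3 (adjusted p = 0.000200, 2.14-fold lower), -0.63 at day 7 (adjusted p = 0.0116) and -0.61 at day 14 (adjusted p = 0.0223).

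The day 14 call of Igfbp4 was lost without day 14 array 2 or 3 or any 1 of the 3 uninjured arrays (adjusted p from 0.0613 to 0.0796), and the other 3 held without any single array. All 6 Igfbp4 probe sets had lower means in UUO and at day 3, by -0.27 to -1.01 and by -0.36 to -1.39. At day 7 and day 14 the probe set 1421991_PM_a_at differed by -0.00 and 0.02. With the mean of the 6 probe sets in place of the brightest, the differences at day 7 and day 14 were both -0.42 and not called (adjusted p = 0.209 and 0.276). With proximal tubule markers in the fit, Igfbp4 was not called in UUO (-0.70, adjusted p = 0.168) or at day 7 (-0.61, adjusted p = 0.0790). With macrophage markers it was not called at day 7 (-0.98, adjusted p = 0.576) or day 14 (-0.95, adjusted p = 0.520). The day 3 call held under each marker covariate.

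Igfbp5, a binding protein that attaches to extracellular matrix, was high in uninjured kidney. Its arrays read 6.78, 8.26 and 8.52 in UUO and 11.31, 11.20 and 10.38 in uninjured kidney. They read 7.56, 9.37 and 8.44 at folic acid day 3, 9.63, 9.28 and 9.76 at day 7, and 8.28, 9.87 and 10.35 at day 14. Every injured array lay below the uninjured arrays, with day 14 array 3 the closest. The difference was -3.11 in UUO (SE 0.59, adjusted p = 0.00355, 8.66-fold lower) and -2.51 at day 3 (adjusted p = 0.0123, 5.68-fold lower). At day 7 it was -1.41 (adjusted p = 0.148) and at day 14 -1.46 (adjusted p = 0.183), which were not called. In the order of means no neighbours differed (adjusted p from 0.148 to 0.989), and the day 3 call was lost without day 3 array 1 (-2.06, adjusted p = 0.0550).

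Endothelial cells are a known source of Igfbp5 in kidney. The mean of 13 endothelial markers was 6.25 (6.04 to 6.40) in UUO, 6.93 (6.43 to 7.24) in uninjured kidney, and 6.70, 6.94 and 6.93 over the folic acid days. Of 12 tested, 4 were lower and 0 higher in UUO, and 4 were lower and 3 higher at day 3. The 3 brightest, Eng, Emcn and Ehd3, averaged 8.52, 8.14 and 7.78 in UUO and 9.61, 9.66 and 9.90 at day 3. In uninjured kidney they averaged 8.23, 8.30 and 8.75. With the endothelial mean as a covariate the Igfbp5 difference was -1.87 in UUO (adjusted p = 0.104) and -2.08 at day 3 (adjusted p = 0.0170). The podocyte marker mean was lower in each injured group, at 6.29 in UUO, 7.71 in uninjured kidney, and 5.95, 6.56 and 6.86 over the folic acid days. The proximal tubule mean as a covariate left the UUO difference at -4.45 (adjusted p = 0.0320).

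Igfbp6, which prefers IGF2 over IGF1 as its ligand, was higher in UUO and at folic acid day 7. Its arrays read 6.23, 6.30 and 6.34 in UUO and 5.22, 5.14 and 5.00 in uninjured kidney. They read 5.89, 5.54 and 5.66 at folic acid day 3, 5.97, 6.48 and 5.65 at day 7, and 6.37, 5.22 and 6.17 at day 14. No injured array overlapped the uninjured ones, although day 14 array 2 equalled the highest of them to 2 decimals. UUO exceeded uninjured kidney by 1.17 (SE 0.27, adjusted p = 0.0106, 2.26-fold), and this call held without any single array. The day 7 difference of 0.92 (adjusted p = 0.0463) was just inside the threshold and was kept under 3 of 15 single omissions (adjusted p up to 0.172). Day 3 (0.58, adjusted p = 0.168) and day 14 (0.80, adjusted p = 0.111) did not pass, and without day 14 array 2 the day 14 difference was 1.15 (adjusted p = 0.00827).

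Of 19 tested macrophage markers, 13 were higher at day 7 and 12 at day 14, while in UUO 3 were higher and 1 lower. Over the day 7 arrays the macrophage mean was 7.54, 8.37 and 8.48, where Igfbp6 read 5.97, 6.48 and 5.65. With the mean of the macrophage markers as a covariate, the Igfbp6 difference turned to -0.40 at day 7 (adjusted p = 0.943). It was 0.86 in UUO (adjusted p = 0.0901). The macrophage covariate moves with the groups, so the fit cannot separate the part of macrophages in Igfbp6, which was not tested. With the proximal tubule markers the Igfbp6 difference was 0.86 at day 7 (adjusted p = 0.200) and 1.08 in UUO (adjusted p = 0.289).

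**Figure D4:**
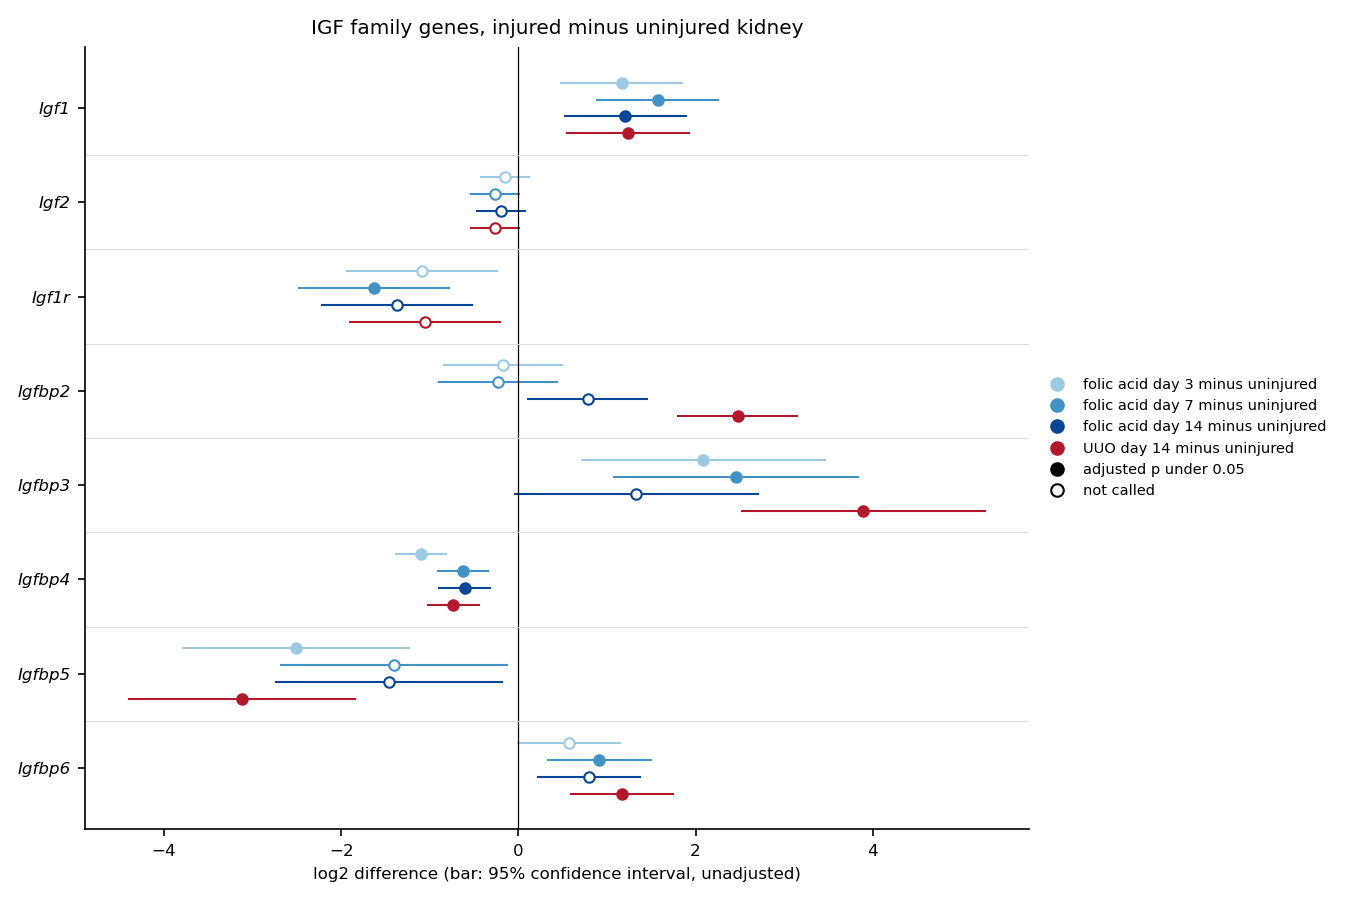
Log2 difference from uninjured kidney (horizontal axis) of each IGF gene at folic acid day 3, day 7 and day 14 and in UUO, with unadjusted 95% confidence intervals. Filled points were called at an adjusted p under 0.05; Igf1 and Igfbp4 are filled in all 4 comparisons, in opposite directions, and Igfbp2 only in UUO.

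Between folic acid times, none of the 8 IGF genes was called by limma. At an unadjusted p under 0.05 there was 1 of 8 in day 7 minus day 3, 2 in day 14 minus day 3 and 1 in day 14 minus day 7, against 11.1%, 16.4% and 8.83% of all genes at the same unadjusted threshold. At the adjusted threshold, 0.695%, 3.05% and 0.0518% of all genes were called. Igfbp2 at day 14 exceeded day 3 by 0.95 (adjusted p = 0.137) and day 7 by 1.01 (adjusted p = 0.353), and its day 14 arrays did not overlap those of either day. Without day 14 array 2, the difference from day 3 was 1.34 (adjusted p = 0.0225).

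The genes whose levels ran most closely with an IGF gene over the 15 arrays are given as a description, since the arrays share their groups. For Igf1 these were Thbd (Pearson r = 0.914), Slc39a1 (r = 0.885) and Fbl (r = 0.884). For Igfbp2 they were Cpxm2 (r = 0.909), Pamr1 (r = 0.905) and Myrip (r = 0.886), and for Igfbp3 Tceal9 (r = 0.928), Fndc1 (r = 0.924) and Dact1 (r = 0.918). For Igfbp4 they were Slc7a4 (r = 0.920), Chrna6 (r = 0.900) and Plekhd1 (r = 0.899). Igfbp5 ran with Ano1 (r = 0.905), Dusp9 (r = 0.880) and Tek (r = 0.857), the last a receptor of endothelial cells. Within groups, taken as deviations from the group means, r was 0.85 for Igfbp2 with Pamr1, 0.39 for Igfbp2 with Cpxm2, 0.82 for Igfbp5 with Ano1 and 0.18 for Igfbp4 with Plekhd1.

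Of 36 other genes of the IGF and insulin pathway, 26 were tested, covering other receptors, other binding proteins, binding protein proteases, RNA-binding proteins, adaptors and the PI3K, AKT and mTOR cascade. In UUO 4 were higher and 3 lower than in uninjured kidney, at day 3 there were 3 of each, at day 7 there were 2 of each, and at day 14 limma called 0. Over all genes 16.6% were called in UUO, and 17.0%, 11.7% and 5.67% over the folic acid days. The median log2 difference of the 26 was -0.00 in UUO and -0.18, -0.09 and -0.17 over the folic acid days.

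The other binding protein Igfbp1, known as an insulin-controlled product of liver, was lower in UUO and at folic acid days 3 and 7. It read 4.96, 4.82 and 4.97 in UUO and 7.87, 7.80 and 9.32 in uninjured kidney. It averaged 5.10 ± 0.45, 5.39 ± 0.92 and 6.86 ± 0.98 at folic acid days 3, 7 and 14. The arrays read 6.45, 4.81 and 4.91 at day 7, and 7.44, 7.41 and 5.74 at day 14. The highest folic acid arrays were thus day 7 array 1 and day 14 arrays 1 and 2. These same arrays lay within the uninjured range of proximal tubule markers. The part of tubule cells in Igfbp1 was not tested. The UUO arrays were near the array median, and the day 14 arrays lay between. The difference was -3.41 in UUO (SE 0.55, adjusted p = 0.00127), -3.23 at day 3 (adjusted p = 0.00185), -2.94 at day 7 (adjusted p = 0.00490) and -1.47 at day 14 (adjusted p = 0.150). Igfals, the subunit that joins IGF and IGFBP3 into the large plasma complex, was lower in UUO (-0.60, adjusted p = 0.0296), from levels near the array median.

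The adaptor Grb10, which binds the insulin and IGF1 receptors and restrains their signal, was higher in UUO and at folic acid days 3 and 7. It read 9.49, 9.10 and 9.23 in UUO and 6.67, 6.52 and 7.00 in uninjured kidney, with means of 8.70, 8.28 and 7.69 over the folic acid days. The difference was 2.54 in UUO (SE 0.27, adjusted p = 6.58e-05, 5.83-fold), 1.97 at day 3 (adjusted p = 0.000391), 1.55 at day 7 (adjusted p = 0.00291) and 0.96 at day 14 (adjusted p = 0.0558). UUO exceeded folic acid day 14 by 1.58 (adjusted p = 0.0101). Shc1, another receptor adaptor, was higher in UUO (1.15, adjusted p = 0.0210) and at day 7 (1.04, adjusted p = 0.0442), and Grb14, an adaptor related to Grb10, was lower at day 3 (-0.97, adjusted p = 0.0427).

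Among the proteases, Adam12, a metalloprotease that cleaves IGFBP3 and IGFBP5, was higher in UUO (2.42, SE 0.65, adjusted p = 0.0234) and at folic acid day 3 (2.68, adjusted p = 0.0140). Its level was 10.29 ± 1.09 in UUO, 7.87 ± 0.84 in uninjured kidney, and 10.55 ± 0.50, 9.89 ± 0.37 and 8.39 ± 1.25 over the folic acid days. It was the only 1 of 5 tested proteases and inhibitors called in these 2 comparisons. The insulin receptor gene Insr was lower at day 3 (-1.12, SE 0.23, adjusted p = 0.00534) and was not called in UUO (-0.57, adjusted p = 0.109).

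In the cascade below the receptor, Mtor, the kinase that couples growth factors to protein synthesis, was lower in UUO (-1.08, SE 0.20, adjusted p = 0.00297) and at folic acid day 7 (-0.84, adjusted p = 0.0178). Its arrays read 6.99, 7.46 and 7.27 in UUO, against 8.57, 8.53 and 8.38 at folic acid day 14, with no overlap, and the difference was -1.25 (adjusted p = 0.00832). Eif4ebp1, a repressor of translation that mTOR phosphorylates, was higher at day 3 (1.57, SE 0.25, adjusted p = 0.00122) and in UUO (0.89, adjusted p = 0.0304), and lower at day 14 than at day 3 (-1.15, adjusted p = 0.0312). The last 2 values of Eif4ebp1 were picked out after they had been seen. Fibroblast, tubule and podocyte markers moved with these differences as given above, and their part was not tested.

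**Figure D5:**
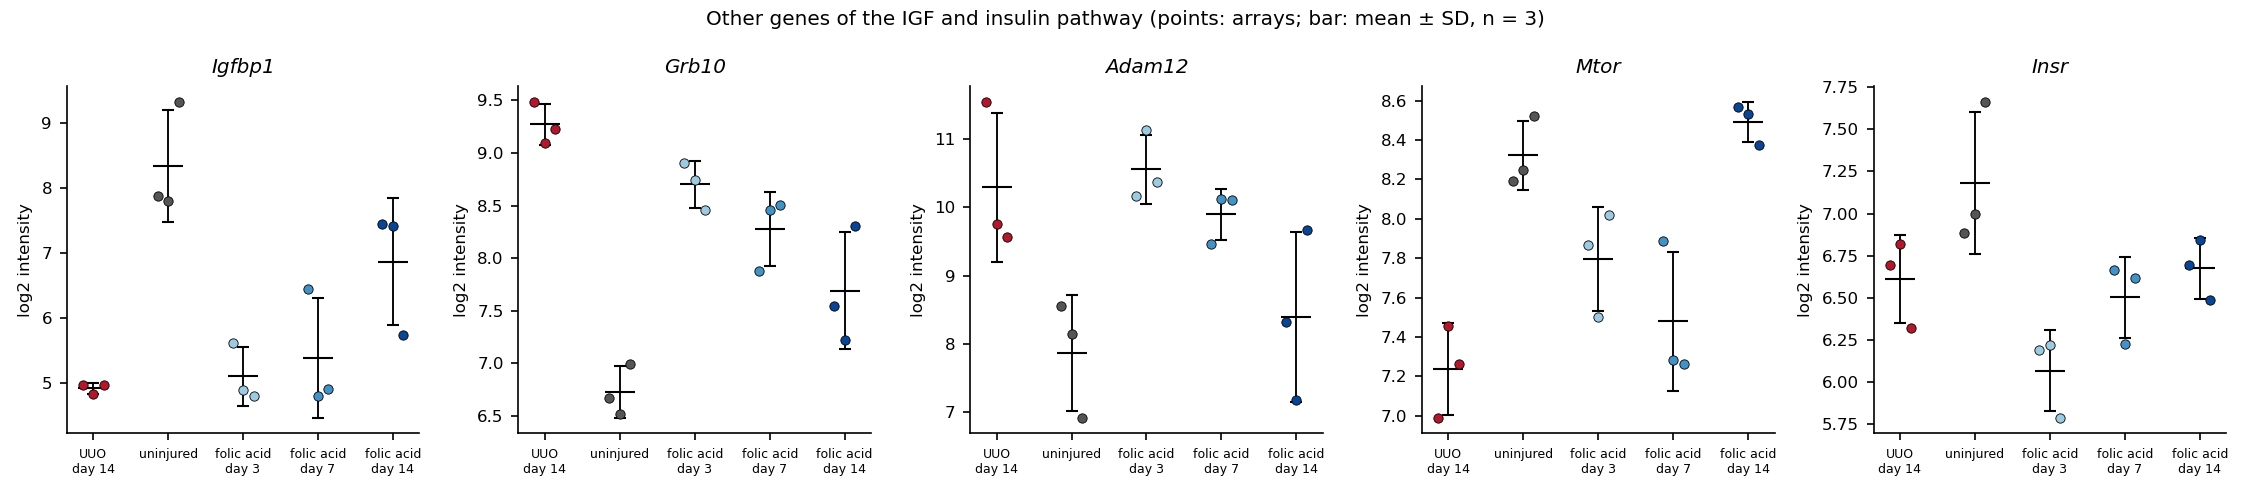
Log2 intensity of Igfbp1, Grb10, Adam12, Mtor and Insr in the 15 arrays, by group, each with its own axis. Points are arrays and bars are means ± SD (n = 3); Grb10 is at or above 9.10 in UUO and at or below 7.00 in uninjured kidney, and Igfbp1 runs the other way.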

How the data were processed

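Each of 15 arrays came as deposited log2 intensities of 45141 probe sets. The submitters' processing notes name RMA, affy and limma, with no version or role. Per the labels' protocols, RNA was isolated with Trizol, amplified from a small amount of total RNA and labelled with biotin. Amplification and the lack of a background measure can compress folds of dim genes. Array medians ran from 4.93 to 5.06, and no further normalization was applied. The precision of every value is limited by the number of arrays.

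Probe sets were named through the platform annotation, in which 28898 named 1 gene, 551 several and 15692 none. The probe set naming a gene alone with the highest mean over 15 arrays stood for the gene. Tests ran on the 13523 of 17097 genes that exceeded the 40th percentile of an array in 3 or more arrays. With limma 3.58.1 (R 4.3.3), lmFit estimated the 5 group means from all arrays together and eBayes moderated the variances (10 residual degrees of freedom), with 2-sided moderated tests of 10 comparisons, an F test, and Benjamini-Hochberg adjustment within each over all genes tested. No number in the labels pairs arrays across groups.

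The IGF genes, the pathway and marker lists, the rules and the tests were chosen with earlier results of these data known. The genes named were the IGF genes, up to 6 called pathway genes of smallest p per comparison, the 3 genes of highest correlation with each IGF gene called in the F test, and the brightest markers of a list. The script was tested on simulated data. There, a small part of the 13523 genes was changed by a known amount. In UUO minus uninjured kidney, 38% of the genes changed by log2 1 and 82% of those changed by log2 2 were recovered, with 12 false calls. The part changed was far smaller than the 16.6% of genes called in UUO, so recovery in the real data may differ. Alternatives were quantile normalization, aligned medians, trend and robust settings, array weights, other filters, other probe set rules, a threshold of 0.01, marker means as covariates, only the groups compared, and single arrays left out. Promoter windows came from RefSeq (GRCm38.p6). Igfbp7 and some of the listed pathway genes were not analysed here, and Pappa2 and Stc1 were too dim. Plots were drawn with matplotlib 3.10.9.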

Additional observations from a re-analysis of the deposited data

Results flagged for a closer look

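Igfbp2 was picked out because limma's test of UUO against folic acid called it. It was higher in UUO than at folic acid day 14 by 1.69 on the log2 scale (SE 0.31, adjusted p = 0.0145), with UUO arrays from 7.65 to 8.49 and day 14 arrays from 5.60 to 7.12. This call, the only one matched in time, was lost without UUO array 1 (adjusted p = 0.0529) or 2 (adjusted p = 0.0510), in a fit of the 6 arrays alone (adjusted p = 0.156), and with proximal tubule, macrophage or endothelial markers as a covariate (adjusted p = 0.186, 0.0815 and 0.106). It was higher in UUO than at folic acid day 7 by 2.71 (adjusted p = 0.00370) and than at day 3 by 2.65 (adjusted p = 0.00158), where all 3 UUO arrays lay above all 3 folic acid arrays. The day 7 call was lost in a fit of its 6 arrays (adjusted p = 0.0578) and with macrophage or endothelial markers as a covariate (adjusted p = 0.0866 and 0.0769). UUO and folic acid days 3 and 7 differ in both model and time, which cannot be told apart.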

How the results depend on the processing

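Of 20 differences of single IGF genes that were called, 3 held under all 14 other settings and all 15 single omissions: Igfbp2 in UUO minus uninjured kidney and in UUO minus folic acid day 3, and Igfbp4 at day 3 minus uninjured kidney. Numbers of IGF genes called under single omissions ranged from 3 to 6 in the F test (5 with all arrays), 5 to 7 in UUO (6), and 1 to 5, 2 to 5 and 0 to 3 for folic acid days 3, 7 and 14 (4, 5 and 2), each against uninjured kidney. They ranged from 0 to 2 in UUO minus day 14 (1) and 0 to 1 in day 14 minus day 3 (0), and stayed at 1 in UUO minus day 7 and minus day 3 and at 0 in day 7 minus day 3 and day 14 minus day 7. The arrays whose omission ended a call are named beside that call, except for Igf1 at day 14 and Igfbp6 at day 7. Igf1 at day 14 kept its call only without day 3 array 2 or 3 or day 7 array 1 or 3, and Igfbp6 at day 7 only without day 7 array 3 or day 14 array 1 or 2. A threshold of 0.01 gave 2 in the F test, 0 in UUO minus day 14, and 1, 1 and 0 for folic acid days 3, 7 and 14. The proximal tubule covariate gave 2 in the F test, 2 in UUO, 0 in UUO minus day 14, and 2, 0 and 1 for the folic acid days. The macrophage covariate gave 0 in UUO minus day 14 and minus day 7, and 2, 0 and 0 for the folic acid days, and it turned Igfbp6 at day 7 to -0.40 (adjusted p = 0.943). The endothelial covariate and a fit of only the arrays compared each gave 0 in UUO minus day 14 and 0 in UUO minus day 7. Trend and robust settings, no filter, the mean of probe sets and the probe set of highest variance each gave 1 at day 14. The last 2 gave 2 in UUO minus day 14 and 1 in day 7 minus day 3, the filter at the 60th percentile gave 2 in UUO minus day 14, the probe set of highest variance gave 2 in UUO minus day 3, and quantile normalization gave 1 in day 14 minus day 3. Leaving out the 3 injured arrays high in tubule markers, chosen after seeing the data, gave 0 at day 14, where 1 array remained. A marker covariate moves with the groups, so such a fit has less information on them. The causes of the other changes were not tested. No paired analysis was possible because the sample numbers are not shared between groups. The number of arrays and the unmeasured background of dim probe sets limit what can be seen.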

Other observations

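Some binding protein genes lie side by side in the mouse genome. Igfbp2 and Igfbp5 are adjacent on chromosome 1, on opposite strands with 0 annotated genes between them, and so are Igfbp1 and Igfbp3 on chromosome 11. In UUO minus uninjured kidney, Igfbp2 was higher by 2.48 and Igfbp5 lower (-3.11), and Igfbp3 was higher by 3.89 and Igfbp1 lower (-3.41), so the members of both pairs moved in opposite directions. At folic acid day 3, Igfbp2 differed by -0.17 (adjusted p = 0.754) and Igfbp5 by -2.51, and Igfbp3 by 2.09 and Igfbp1 by -3.23. Over the 15 arrays, Igfbp2 and Igfbp5 had r = -0.59, and their deviations from the group means had r = -0.62. Such values were not particular to neighbours. Igfbp3 and Igfbp5, on different chromosomes, had r = -0.68 over the arrays, and Igfbp5 and Igfbp6 had r = -0.65. For Igf2 and Igfbp2, also on different chromosomes, the deviations had r = -0.63. The correlation of Igfbp1 with Igfbp3 was not computed.

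Some deposited values recurred exactly between arrays. Of 45141 probe sets, 16682 (37%) had a value that was identical in more than 1 array, and so did the probe sets used for 4 of the 8 IGF genes. For Igf1r the same value stood in 3 arrays (folic acid day 3 array 2, day 14 array 2 and UUO array 2), and for Igf2 a value also recurred in 3 arrays. No pair of whole arrays was identical.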
